A study of Mus musculus with 24 samples.

Results

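Kidneys taken 1 week after a ureter obstruction had been reversed (R1W) were compared with kidneys of sham-operated mice, across all 14785 genes of one deposited expression table. The 2 groups hold 8 of the 24 libraries of the series, 4 from R1W and 4 from sham, each group and replicate number read from the sample titles. All animals were male C57/BL6 mice, with no transgene or engineered allele named in the labels. The labels give an age of 8 weeks for every sample, and the design text gives 8 to 9 weeks at the start. Sham mice had sham surgery only, and the interval between that surgery and death is not given in the sources used here. R1W mice had the ureter of 1 kidney ligated for 7 days, then had it reimplanted, and were killed 1 week later. That makes 2 operations in R1W, set against sham surgery alone, so surgery differs along with the obstruction. A further group of 4, killed at 7 days of obstruction with no reversal (UUO7), was used to place R1W beside the injury it followed. The libraries came from 4 animals of each group of 10, and how those 4 were chosen is not stated. The labels call the tissue kidney, the series title calls it cortical kidney, and RNA was selected by polyA.

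The reversible obstruction model separates an injury phase from a repair phase in the same kidney. While the ureter is closed, pressure in the tubules injures and simplifies the tubular epithelium, above all the proximal tubule, which carries out most reabsorption and depends on oxidation of fatty acids. Injured tubule cells lose transporters, express injury genes such as Havcr1 and Lcn2 and release chemokines. Macrophages and lymphocytes enter, and fibroblasts and pericytes lay down collagen. Once flow is restored the epithelium can regain its transporters and matrix can be removed.

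The implied depth of the 8 libraries was 29100000 to 35300000 fragments. Values are FPKM, fragments scaled to transcript length and to the library's total, and each set of 4 values below is given in the order of replicates 1 to 4. The median Pearson correlation of 2 libraries, taken across genes after adding 1 and taking log2, was 0.977 within R1W, 0.982 within sham, 0.908 between R1W and sham and 0.965 between R1W and UUO7. The 10 most abundant genes took 22.2% to 24.5% of summed FPKM in sham and 11.6% to 14.6% in R1W. Sham replicate 2 stood apart from the other 3 sham libraries. Its summed FPKM over 11 urothelium genes was 135, against 2.65 to 7.72 in the other 3, and over 9 adipose tissue genes it was 369, against 86.3 to 92.1. It also had the lowest proximal tubule sum and the highest matrix, macrophage and MHC class II sums of the sham libraries. Counts without it stand beside the results that move with it. Nothing in the labels says more about the animals. Unless stated, each p-value rests on a spread between libraries pooled over all 24 libraries of the series, not only the 8 compared.

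Reversal had not returned the kidney to the sham profile after 1 week. On the values as deposited, limma called 10954 of 14785 genes at an adjusted p under 0.05, 8777 of them higher in R1W (59.4% of all genes) and 2177 lower (14.7%). The median log2 fold change over all genes was 0.37. FPKM is a share of the library, and sham libraries held a larger share in a few abundant transcripts, so each library was also divided by its median ratio to a reference library of geometric means. After rescaling, 10102 genes were called, 4980 higher (33.7%) and 5122 lower (34.6%), and the median moved to -0.01. The share of calls that were higher was 80.1% as deposited and 49.3% rescaled. Both scalings called 7157 genes in the same direction, while 475 genes were called higher as deposited and lower after rescaling.

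**Figure D1:**
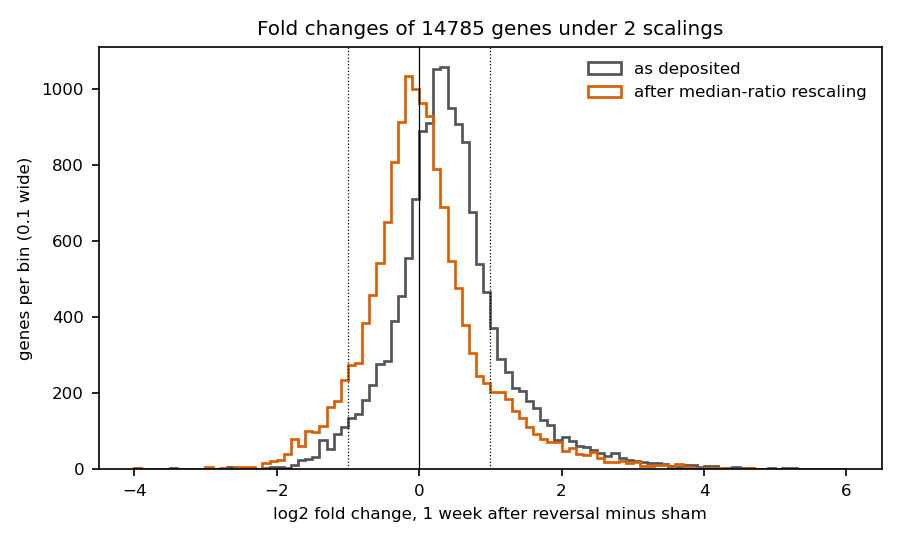
Histogram of the log2 fold change of R1W minus sham over 14785 genes (x axis; values beyond -4 or 6 are drawn in the outermost bins), as number of genes per bin (y axis), for the deposited values and after rescaling. The distribution lies further left after rescaling, with the median going from 0.37 to -0.01, and the dotted lines mark log2 fold changes of -1 and 1.

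Because the scaling decides the direction of many small differences, gene lists are counted below by a stricter rule, called a 2-fold call: an adjusted p under 0.05 with a log2 difference of 1 or more in size, in the same direction under both scalings. By this rule 2098 genes differed, 1698 higher in R1W (11.5% of all genes) and 400 lower (2.71%). Of these calls 80.9% were higher, against 86.8% for the same fold minimum on deposited values alone and 61.2% on rescaled values alone. In the authors' deposited table, 2039 of the 2098 genes have an adjusted p under 0.05 in the same direction. The same held for 6764 of the 10954 genes called as deposited and for 8988 of the 10102 called after rescaling. At that threshold the authors had 9603 genes, 4646 higher in R1W and 4957 lower. Differences are between means of log2(FPKM + 1), on deposited values unless stated, and the added 1 understates those of low genes.

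The deposited table holds only genes with a mean of 1 FPKM or more over the 24 libraries, which bears on the counts of higher genes. Of all 14785 genes, 1603 had a sham mean under 1 FPKM, so they have a row only through other groups where they were higher. That is so for 17 of 19 T and NK cell genes, all 3 neutrophil genes, 22 of 33 chemokine and receptor genes, 14 of 28 macrophage genes, 13 of 32 cell cycle genes, 10 of 23 matrix proteases and inhibitors, 10 of 36 matrix genes, 8 of 33 TGF-beta and BMP genes, 4 of 19 glycolysis genes, 6 of 12 B and plasma cell genes, 5 of 11 MHC class II genes and 6 of 30 injured tubule genes. It is so too for 4 of 32 interferon response genes, 3 of 19 immediate early genes and 2 of 18 fibroblast and pericyte genes. Genes named below with such a sham mean include Krt20, Sox9, Mki67, Atf3, Timp1, Mmp7, Nkd2, Adgre1, Cd3e, Trbc2, Ccl8 and Iglc1. For such members a higher level in injured or recovering kidneys was largely set by the choice of rows. The list counts of higher genes therefore describe the rows and support nothing further. Of the 13182 genes with a sham mean of 1 FPKM or more, 983 were 2-fold higher; among them were 13 of 14 macrophage genes, 23 of 26 matrix genes, 20 of 24 injured tubule genes and 24 of 28 interferon response genes. Of the T and NK cell genes 2 reached that sham level, and of the neutrophil genes 0 did. At that level 6 of 19 cell cycle genes and 9 of 13 matrix proteases and inhibitors were 2-fold higher.

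**Figure D2:**
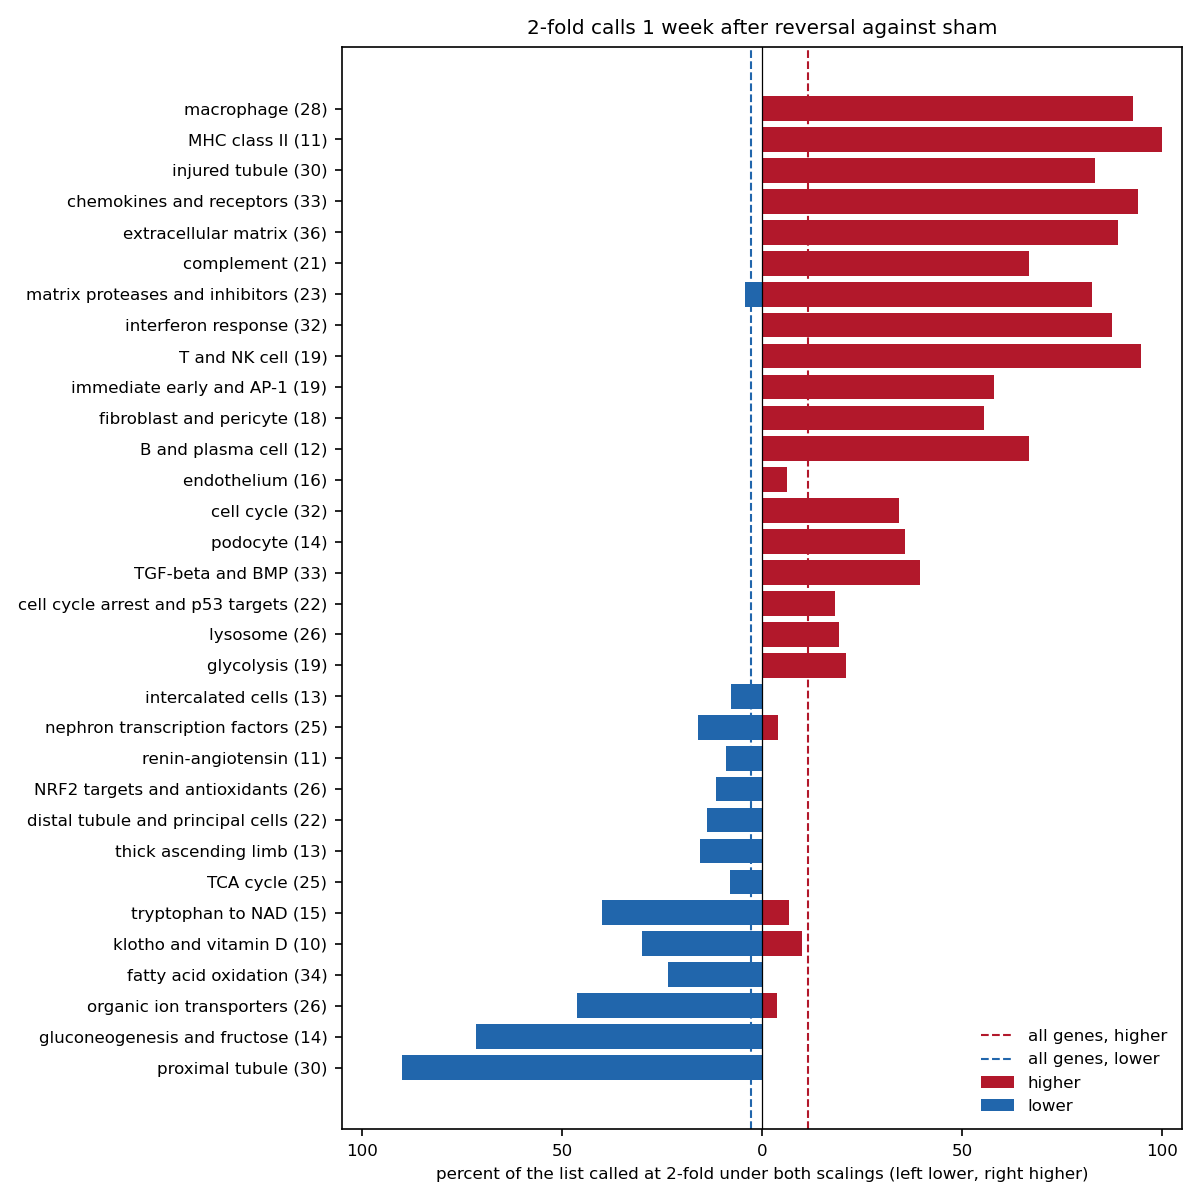
Percent of each gene list (number of genes with a row in brackets) called at 2-fold under both scalings, higher in R1W to the right and lower to the left. Dashed lines mark the percent over all genes, 11.5% higher and 2.71% lower; immune, matrix and injury lists lie far to the right, and the proximal tubule and gluconeogenesis lists far to the left.

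Proximal tubule genes were the most reduced group. Of 30 genes that serve as proximal tubule markers, 27 were 2-fold lower, 0 were 2-fold higher, and all 30 were called lower under both scalings, and the R1W and sham libraries did not overlap for any of them. Over all genes, the 4 R1W libraries lay below the 4 sham libraries for 12.9% and above them for 53.4%. The list's median log2 fold change was -1.33 as deposited and -1.78 rescaled, beside 0.37 and -0.01 over all genes. Summed over the list, FPKM was 68113, 52828, 64546 and 66622 in sham and 35472, 19356, 29732 and 34168 in R1W. The highest R1W library was below the lowest sham library, and R1W replicate 2 was the lowest of its group. In bulk tissue, fewer cells of a type and less RNA per cell cannot be told apart.

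Slc34a1, the main phosphate transporter of the proximal tubule (chr13:55398187-55415592, plus strand, mm10), was at 2819, 2548, 2992 and 2698 FPKM in sham and 1371, 823, 962 and 1275 in R1W. All 4 R1W libraries lay below the sham range, and the log2 difference was -1.35 ± 0.21 (SE, adjusted p = 8.9e-06). Slc5a2, the glucose transporter SGLT2 (chr7:128265657-128272430, plus strand), was at 308, 291, 336 and 302 FPKM in sham and 169.7, 113, 165 and 138 in R1W, a difference of -1.09 ± 0.16 (SE, adjusted p = 3.5e-06). Lrp2, which encodes the endocytic receptor megalin (chr2:69424340-69586065, minus strand), fell from 119.5, 96.3, 127 and 108 FPKM to 44.6, 29.7, 27.1 and 37.2, a difference of -1.69 ± 0.21 (SE, adjusted p = 4.7e-07). These 3 genes cover phosphate, glucose and protein uptake, and in each of them the 2 groups were separate. The falls of greatest size on the list were Cyp4b1, a cytochrome P450 (chr4:115624725-115647723, minus strand), and Slc6a19, a neutral amino acid transporter (chr13:73679745-73704865, minus strand). Cyp4b1 was at 1513, 1347, 1671 and 1590.4 FPKM in sham and 501, 258, 321 and 419 in R1W, a difference of -2.07 ± 0.26 (SE, adjusted p = 6.0e-07). For Slc6a19 the values were 66.1, 68.5, 91.0 and 72.3 FPKM and 21.3, 13.4, 20.6 and 21.7, a difference of -1.91 ± 0.25 (SE, adjusted p = 1.0e-06). The 3 listed genes short of the 2-fold rule were Aqp1 (-0.94), Napsa (-0.65) and Amn (-0.41).

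Transcription factors of the nephron included some of the lower genes. Of 25 on the list, 4 were 2-fold lower and 1 was 2-fold higher, and of the 24 with a sham mean of 1 FPKM or more 0 were 2-fold higher. Hnf4a, a nuclear receptor that maintains the proximal tubule programme (chr2:163506808-163572910, plus strand), was at 197, 168, 201 and 163 FPKM in sham and 87.1, 62.4, 53.1 and 80.2 in R1W, with no overlap and a difference of -1.37 ± 0.16 (SE, adjusted p = 2.9e-07). Ppara, the nuclear receptor that drives fatty acid oxidation genes (chr15:85734983-85802819, plus strand), was at 11.0, 9.71, 12.4 and 6.53 FPKM and 3.13, 2.97, 1.16 and 5.50, a difference of -1.45 ± 0.24 (SE, adjusted p = 1.8e-05). R1W replicate 4 came closest to the sham range for Ppara, and the groups stayed separate. Lhx1, a developmental homeobox factor of the nephron (chr11:84518284-84525535, minus strand), differed by -1.52 ± 0.23 (SE, adjusted p = 6.9e-06). The 2-fold rise was Hoxd11, under 1 FPKM in sham on average, a patterning factor of the kidney (chr2:74679557-74687016, plus strand), at 0.72, 1.18, 0.88 and 0.60 FPKM in sham and 5.94, 6.80, 5.98 and 6.09 in R1W, a difference of 1.97 ± 0.14 (SE, adjusted p = 3.6e-10). Ppargc1a, a coactivator of mitochondrial genes, was at -0.20 and did not pass the test on deposited values, but was called lower after rescaling, at -0.61 ± 0.14 (SE, adjusted p = 5.1e-04).

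Metabolic genes of the proximal tubule were lower along with its transporters. Of 14 genes of gluconeogenesis and fructose handling, 10 were 2-fold lower and 0 were 2-fold higher, with a median log2 fold change of -1.13. Pck1, the enzyme that commits carbon to glucose synthesis (chr2:173153048-173159273, plus strand), was at 511, 812, 599.8 and 584 FPKM in sham and 313, 146, 153 and 288 in R1W, a difference of -1.54 ± 0.33 (SE, adjusted p = 2.5e-04). Pcx, pyruvate carboxylase (chr19:4510472-4621752, plus strand), was at 191, 197, 211 and 178 FPKM and 68.6, 43.0, 31.0 and 54.4, a difference of -2.01 ± 0.23 (SE, adjusted p = 1.9e-07). Both genes were separate between the groups. Pck2, the mitochondrial counterpart of Pck1, was called higher at 1.18, short of the 2-fold rule because it did not reach that size after rescaling.

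Of 34 fatty acid oxidation genes, 8 were 2-fold lower, 0 were 2-fold higher, and 28 were called lower on deposited values. The median was -0.60 as deposited and -1.04 rescaled, so most of this list fell by less than 2-fold on deposited values only. Ehhadh, an enzyme of peroxisomal oxidation (chr16:21761287-21787844, minus strand), was at 385, 313, 346 and 316 FPKM in sham and 136, 71.3, 32.2 and 129.5 in R1W, a difference of -2.07 ± 0.36 (SE, adjusted p = 3.6e-05). The fall was greatest in R1W replicate 3. Cyp4a12a, a fatty acid hydroxylase (chr4:115299046-115332815, plus strand), had the greatest fall of the list, -2.60 ± 0.39 (SE, adjusted p = 5.0e-06). It has near-identical relatives in the Cyp4a family, so the share of its reads is uncertain. Acadm, the medium-chain dehydrogenase of mitochondrial oxidation (chr3:153922357-153944632, minus strand), was at 886, 681, 810.1 and 791 FPKM and 515, 269, 411 and 669, a difference of -0.83 ± 0.23 (SE, adjusted p = 0.0024), and R1W replicate 4 approached the lowest sham library. Of 25 genes of the TCA cycle, 22 were called lower but only 2, Pcx and Suclg1, at 2-fold, and 1 without R1W replicate 3. The 19 glycolysis genes had a median of 0.16 as deposited and -0.29 rescaled, and 4 were 2-fold higher. All 4 had a sham mean under 1 FPKM and so a row only through groups where they were higher, and 0 of the other 15 were 2-fold higher. They were Eno2 (2.03), Hk3 (1.62), Hk2 (1.51) and the lactate exporter Slc16a3 (1.31); Eno2 is best known from neurons and Hk3 from white blood cells, and macrophage markers were higher in the same libraries, a part that was not tested.

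The path from tryptophan to NAD had 6 of 15 genes 2-fold lower, among them Aadat (-1.53 ± 0.26 (SE, adjusted p = 2.0e-05)) and Kmo (-1.45 ± 0.16 (SE, adjusted p = 1.6e-07)), enzymes of kynurenine metabolism. Its 1 gene 2-fold higher, the only member with a sham mean under 1 FPKM, was Nnmt, which consumes nicotinamide, at 0.45, 1.64, 0.49 and 0.22 FPKM in sham and 7.19, 9.06, 8.36 and 7.89 in R1W. Organic ion transporters, which secrete drugs and metabolites, had 12 of 26 genes 2-fold lower and 1 higher. Slco1a1 (chr6:141907282-141946962, minus strand) was at 84.1, 36.6, 96.8 and 97.3 FPKM in sham and 17.7, 14.0, 15.9 and 17.4 in R1W, a difference of -2.12 ± 0.28 (SE, adjusted p = 1.1e-06). Slc22a6, the organic anion transporter OAT1 (chr19:8617996-8628299, plus strand), was at 285, 252, 273 and 269 FPKM and 109.7, 60.2, 64.5 and 114, a difference of -1.68 ± 0.23 (SE, adjusted p = 1.5e-06). The 2-fold rise was Abcc3, an efflux pump with a sham mean under 1 FPKM, at 0.33, 1.93, 0.63 and 0.75 FPKM and 8.43, 12.3, 8.49 and 7.34. Among 26 antioxidant genes and NRF2 targets, 3 were 2-fold lower, Gpx6 (-1.73), Gpx3 (-1.11) and Cat (-1.09), and 0 were higher; without R1W replicate 2 only 1 met the rule. Gpx3, the secreted glutathione peroxidase made by the proximal tubule, remained among the most abundant transcripts, at 10268, 11299.5, 11865 and 10472 FPKM in sham and 6034, 3625, 5804 and 5169 in R1W.

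Segments beyond the proximal tubule had fewer 2-fold calls. In the thick ascending limb list 2 of 13 genes were 2-fold lower, Egf and Casr, and 1 of them without R1W replicate 3. The median was -0.39 as deposited and -0.80 rescaled. Umod, uromodulin, the most abundant protein of normal urine (chr7:119462711-119479282, minus strand), was at 1625, 1731, 1587 and 1785 FPKM in sham and 1927, 1653, 1549 and 1777 in R1W. The groups overlapped, the difference was 0.03 ± 0.16 (SE, adjusted p = 0.86), and it turned to -0.41 after rescaling. Slc12a1, the sodium, potassium and chloride transporter blocked by loop diuretics (chr2:125152505-125230002, plus strand), was at 210.0, 243, 207 and 282 FPKM and 181, 147, 153 and 184. All R1W libraries were below the sham range, yet the difference of -0.50 ± 0.29 (SE, adjusted p = 0.13) missed the threshold, and it passed after rescaling, at -0.94 ± 0.30 (SE, adjusted p = 0.0089). On deposited values the same difference also passed with R1W and sham fitted alone (limma, adjusted p = 0.00595) and with the 2-day obstruction group left out (adjusted p = 0.0063). Egf, the epidermal growth factor made by distal segments (chr3:129677565-129755316, minus strand), was at 433, 416, 446 and 429 FPKM in sham and 174, 67.3, 87.5 and 146 in R1W, a difference of -1.95 ± 0.40 (SE, adjusted p = 1.7e-04). In R1W, Egf was lowest in replicates 2 and 3, which were also the 2 libraries with the lowest sums of this list. Of the list's 13 genes 2 were called higher on deposited values, both claudins: Cldn16 at 1.32 ± 0.11 (SE, adjusted p = 2.3e-09) and Cldn19 at 1.06 ± 0.16 (SE, adjusted p = 4.8e-06). Cldn10, the other claudin listed, was not among them.

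Among 22 genes of the distal tubule and principal cells, 3 were 2-fold lower and 0 higher. Pvalb, the calcium-binding protein of the early distal convoluted tubule (chr15:78191114-78206400, minus strand), was at 37.1, 37.3, 33.8 and 32.3 FPKM in sham and 4.98, 1.04, 1.45 and 2.65 in R1W. The difference of -3.48 ± 0.29 (SE, adjusted p = 3.3e-09) exceeded that of every other gene on the nephron segment lists. Slc12a3, the thiazide-sensitive transporter of the same segment (chr8:94329201-94366214, plus strand), was at 427, 451, 449 and 372 FPKM and 369, 242, 238 and 305, a difference of -0.58 ± 0.23 (SE, adjusted p = 0.031). That call was lost on leaving out R1W replicate 2 or 3 or sham replicate 1, 2 or 3, where the adjusted p lay between 0.054 and 0.087. The Slc12a3 difference in those fits was between -0.49 and -0.57, and after rescaling all libraries it was -1.02 ± 0.25 (SE, adjusted p = 0.0012). Klk1, tissue kallikrein (chr7:44225360-44229618, plus strand), was at 2099, 2243, 2122 and 2213 FPKM in sham and 1253, 529.9, 923 and 1294 in R1W, a difference of -1.20 ± 0.32 (SE, adjusted p = 0.0019). Aqp2, the vasopressin-regulated water channel of principal cells (chr15:99579056-99584545, plus strand), was at 159, 529, 143 and 216 FPKM and 231, 279.8, 142 and 235, and the groups overlapped. Its difference was -0.07 ± 0.40 (SE, adjusted p = 0.89), and without sham replicate 2, the highest library, it was 0.34 (adjusted p = 0.41). Intercalated cell genes, which serve acid and base transport, had 1 of 13 genes 2-fold lower, Slc4a1 (-1.48 ± 0.36 (SE, adjusted p = 8.9e-04)), and a median of -0.06 as deposited and -0.45 rescaled.

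Genes of mineral hormones were also read. Kl, the co-receptor klotho for the phosphate hormone FGF23 (chr5:150952607-150993817, plus strand), was at 131, 111, 137 and 118 FPKM in sham and 62.2, 46.3, 49.7 and 68.6 in R1W, a difference of -1.13 ± 0.18 (SE, adjusted p = 1.3e-05). Cyp24a1, which inactivates vitamin D (chr2:170482708-170497145, minus strand), fell to 6.37, 6.99, 8.88 and 6.51 FPKM from 19.9, 31.9, 19.4 and 36.1, a difference of -1.72 ± 0.29 (SE, adjusted p = 2.4e-05). Cyp27b1, which activates it (chr10:127048250-127053006, plus strand), was at 0.76, 1.37, 0.58 and 0.85 FPKM in sham and 6.16, 5.45, 6.00 and 4.24 in R1W, a rise of 1.78 ± 0.20 (SE, adjusted p = 1.7e-07). Neither enzyme overlapped between groups, and Cyp27b1, with a sham mean under 1 FPKM, has a row only through other groups where it was higher. The vitamin D receptor Vdr was also 2-fold lower (-1.09), so that 3 of the list's 10 genes were lower and 1 higher. In the renin-angiotensin list 1 of 11 genes, Ace (-1.12 ± 0.18 (SE, adjusted p = 1.1e-05)), was 2-fold lower, and 0 without R1W replicate 2, while Ren1 was called higher at 0.69 on deposited values and did not pass after rescaling, at 0.25 ± 0.29 (SE, adjusted p = 0.46).

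Injury genes of the tubule remained raised. Of 30 genes on the injured tubule list, 25 were 2-fold higher and 0 lower, with a median of 2.70. Havcr1, which encodes KIM-1, a receptor that injured proximal cells use to take up debris (chr11:46735080-46779578, plus strand), was at 1.75, 2.35, 1.49 and 2.06 FPKM in sham and 95.7, 132, 159 and 112 in R1W. The lowest R1W library exceeded the highest sham library by far, and the difference was 5.41 ± 0.33 (SE, adjusted p = 7.0e-11). Lcn2, the iron-scavenging injury marker NGAL (chr2:32384633-32388252, minus strand), was at 2.78, 16.1, 2.15 and 4.64 FPKM and 287, 474, 371 and 279, a difference of 5.89 ± 0.40 (SE, adjusted p = 2.3e-10). Krt20, a keratin of damaged tubules (chr11:99428403-99438150, minus strand), was at 0.12, 0.46, 0.08 and 0.02 FPKM and 17.8, 18.7, 22.1 and 17.4, a difference of 4.10 ± 0.21 (SE, adjusted p = 1.7e-11). In both Lcn2 and Krt20 sham replicate 2 was the highest sham library. Spp1, osteopontin, a secreted phosphoprotein of tubules and macrophages (chr5:104435118-104441050, plus strand), reached 5822, 7648, 10156 and 6665 FPKM in R1W from 385, 719, 389 and 428 in sham, a difference of 4.00 ± 0.22 (SE, adjusted p = 2.6e-11). Vcam1, an adhesion molecule also found on proximal cells that fail to repair (chr3:116109949-116129688, minus strand), was at 1.76, 2.03, 1.55 and 1.66 FPKM and 70.5, 94.1, 98.7 and 77.3, a difference of 4.96 ± 0.23 (SE, adjusted p = 8.0e-12). Sox9, the transcription factor of regenerating tubule cells (chr11:112782224-112787760, plus strand), was lower in level, at 0.13, 0.24, 0.15 and 0.15 FPKM in sham and 1.79, 2.96, 3.69 and 2.60 in R1W. Its difference of 1.66 ± 0.38 (SE, adjusted p = 5.9e-04) did not pass with a pseudocount of 10 in place of 1.

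Cell cycle genes were moderately higher. Of 32, 11 were 2-fold higher and 31 were called higher on deposited values, with a median of 1.07. Mki67, the proliferation antigen (chr7:135689784-135716361, minus strand), was at 0.40, 0.38, 0.34 and 0.40 FPKM in sham and 2.39, 3.90, 3.24 and 2.54 in R1W, a difference of 1.53 ± 0.18 (SE, adjusted p = 2.1e-07). Top2a, the topoisomerase of dividing cells, differed by 2.30 ± 0.24 (SE, adjusted p = 4.1e-08), and Mcm3, a part of the replication helicase, by 2.10 ± 0.28 (SE, adjusted p = 1.0e-06). Of 22 genes of cell cycle arrest and p53 targets, 4 were 2-fold higher. Cdkn1a, the inhibitor p21 (chr17:29090979-29100722, plus strand), was at 2.44, 6.53, 2.72 and 3.52 FPKM and 15.2, 29.2, 21.6 and 17.4, a difference of 2.22 ± 0.28 (SE, adjusted p = 6.9e-07), and the others were Gadd45b (2.30), Phlda3 (1.90) and Btg2 (1.54). Immediate early genes had 11 of 19 members 2-fold higher, led by Klf6 (2.57 ± 0.29 (SE, adjusted p = 1.4e-07)) and Atf3 (2.27 ± 0.34 (SE, adjusted p = 4.9e-06)). Atf3 is among the 3 members with a sham mean under 1 FPKM, and 9 of the other 16 were 2-fold higher. Fos was at 2.01, 2.52, 2.18 and 2.02 FPKM in sham and 3.94, 6.82, 11.4 and 3.89 in R1W, with no overlap but with a difference of 1.13 ± 0.56 (SE, adjusted p = 0.075) that missed the threshold. With R1W and sham fitted alone the same difference passed (limma, adjusted p = 0.0062). R1W replicate 3 held the highest Fos value.

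**Figure D3:**
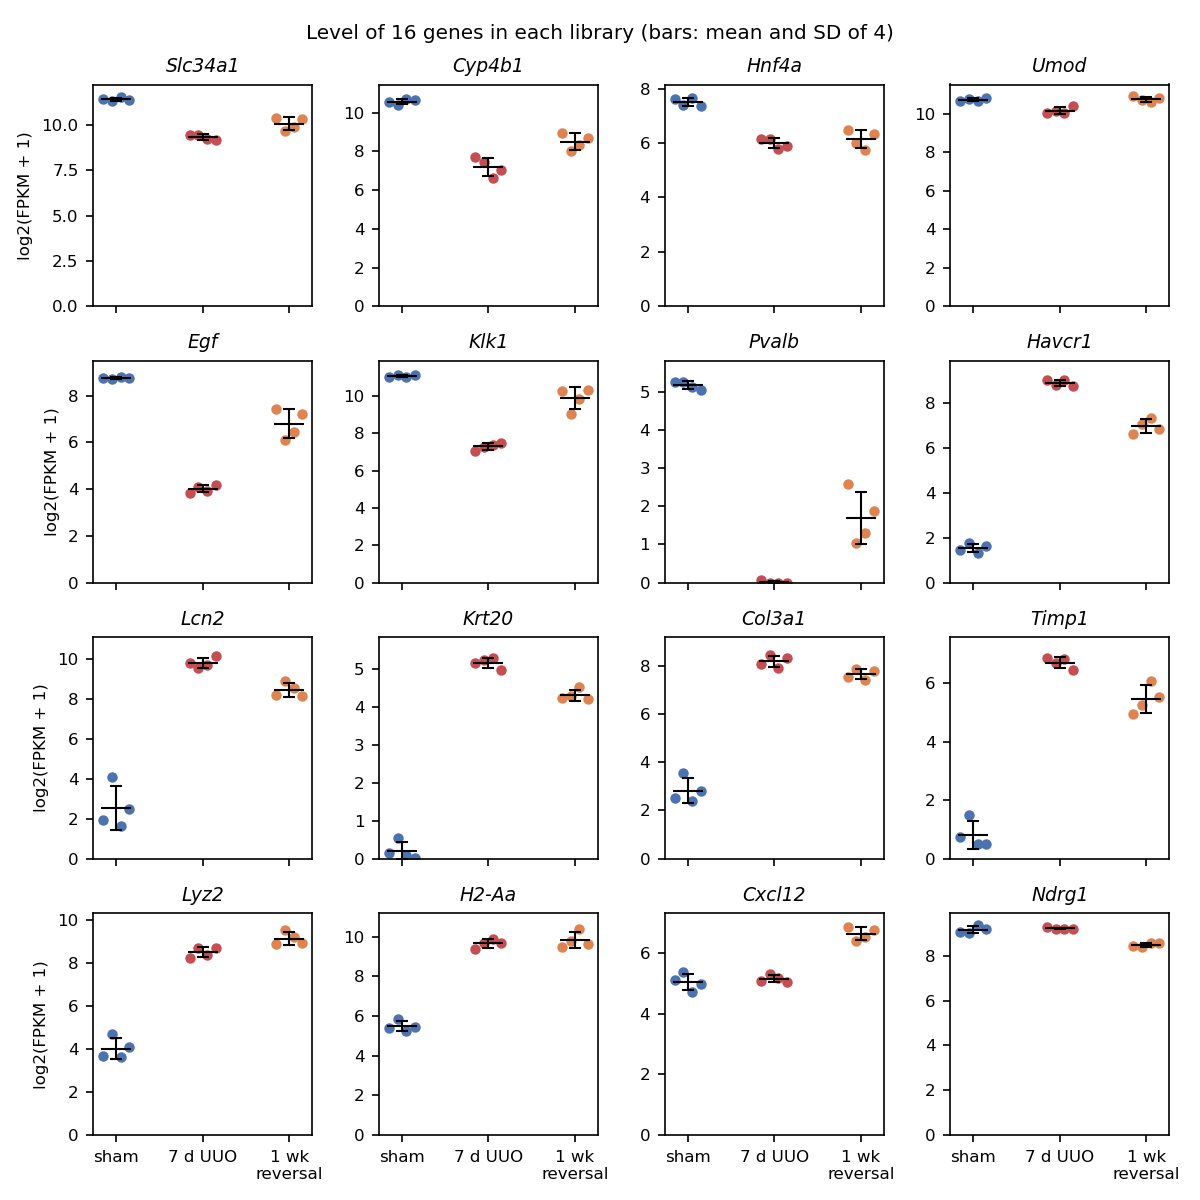
Level of 16 genes on the log2(FPKM + 1) scale (y axes, each from 0) in the 4 libraries of sham, of 7 days of obstruction and of 1 week after reversal (x axes), with the mean and SD of each group as bars. All 4 R1W libraries lie between sham and UUO7 for Slc34a1, Cyp4b1, Egf, Klk1, Pvalb, Havcr1, Lcn2, Krt20, Col3a1 and Timp1. They lie outside both groups for Lyz2, Cxcl12 and Ndrg1, though Lyz2 did not pass against UUO7 (limma, adjusted p = 0.18).

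Extracellular matrix genes were higher almost throughout. Of 36 with a row, 32 were 2-fold higher, 0 lower, and all 36 were called higher on deposited values, with a median of 2.46. Summed FPKM over the list was 349, 532, 325 and 349 in sham and 4089.6, 4421, 6636 and 4584 in R1W, highest in R1W replicate 3. Col3a1, a fibrillar collagen (chr1:45311538-45349706, plus strand), was at 4.76, 10.7, 4.26 and 5.96 FPKM in sham and 185, 234, 168 and 218 in R1W, a difference of 4.83 ± 0.27 (SE, adjusted p = 2.6e-11). Col1a1, the main scar collagen (chr11:94936224-94953042, plus strand), was at 1.80, 3.71, 1.56 and 1.77 FPKM and 50.3, 46.8, 46.3 and 51.8, a difference of 4.00 ± 0.24 (SE, adjusted p = 7.0e-11). Mgp, a matrix protein that inhibits calcification (chr6:136872435-136875823, minus strand), was at 71.0, 128, 55.5 and 63.6 FPKM and 2112, 2406, 4677 and 2597, a difference of 5.20 ± 0.30 (SE, adjusted p = 3.5e-11). Mgp was highest in R1W replicate 3, the library with the highest list sum, and all 3 genes were separate between groups.

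Of 23 matrix proteases and their inhibitors, 19 were 2-fold higher and 1 lower. Timp1, an inhibitor of metalloproteinases (chrX:20870166-20874735, plus strand), was at 0.69, 1.82, 0.42 and 0.42 FPKM in sham and 29.7, 37.5, 67.0 and 44.6 in R1W, a difference of 4.64 ± 0.37 (SE, adjusted p = 1.8e-09). Mmp7, matrilysin, a metalloproteinase of injured epithelium (chr9:7692090-7699585, plus strand), was at 0.07, 0.17, 0 and 0 FPKM and 28.1, 47.6, 54.6 and 34.4, a difference of 5.27 ± 0.41 (SE, adjusted p = 9.2e-10), and it was listed at 0 in 2 sham libraries. Mep1b, meprin beta of the proximal brush border (chr18:21072344-21100199, plus strand), was the 2-fold fall, at -1.31 ± 0.29 (SE, adjusted p = 4.1e-04). A second meprin, Mep1a, also met the rule when R1W replicate 1, R1W replicate 4 or sham replicate 2 was left out, which made 2 falls. Of 18 fibroblast and pericyte genes, 10 were 2-fold higher. Acta2, smooth muscle actin of myofibroblasts and vessels (chr19:34241090-34255336, minus strand), was at 15.6, 27.0, 13.3 and 11.0 FPKM in sham and 82.3, 69.2, 47.0 and 60.2 in R1W, a difference of 1.94 ± 0.34 (SE, adjusted p = 3.4e-05). Pdgfrb, the receptor that marks pericytes and fibroblasts (chr18:61045150-61085061, plus strand), was at 3.65, 5.36, 3.10 and 3.70 FPKM and 22.3, 17.0, 25.6 and 24.1, a difference of 2.24 ± 0.17 (SE, adjusted p = 1.0e-09). Smooth muscle genes Myh11 (-0.25) and Cnn1 (-0.06) did not pass on deposited values, and after rescaling Myh11 was called lower, at -0.61 ± 0.17 (SE, adjusted p = 0.0029). Nkd2, an inhibitor of Wnt signalling found in matrix-producing cells, was at 5.98, 7.80, 7.51 and 5.81 FPKM in R1W and 0.14, 0.51, 0.12 and 0.14 in sham.

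In the TGF-beta and BMP list 13 of 33 genes were 2-fold higher and 0 lower. Of the 33, 8 had a sham mean under 1 FPKM, and 6 of the other 25 were 2-fold higher. The ligand gene Tgfb1 was among them, at 3.19, 5.06, 2.67 and 3.38 FPKM in sham and 17.4, 19.2, 22.5 and 19.4 in R1W (2.19 ± 0.19 (SE, adjusted p = 6.0e-09)). Tgfbi, a matrix protein induced by the pathway (chr13:56609523-56639562, plus strand), differed by 3.02 ± 0.26 (SE, adjusted p = 3.9e-09), and Nbl1, a secreted BMP antagonist (chr4:139082284-139092993, minus strand), by 3.12 ± 0.39 (SE, adjusted p = 5.2e-07). Sham replicate 2 held 15.1 FPKM of Nbl1, against 2.36 to 3.81 in the other sham libraries, and R1W held 41.8, 69.7, 47.0 and 37.0. Bmp7, a factor that protects the tubule (-0.52), and the inhibitor Smad7 (-0.41) were called lower, both by less than 2-fold.

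Macrophage genes were higher in R1W. Of 28 with a row, 26 were 2-fold higher, all 28 were called higher under both scalings, and the median log2 fold change was 3.73 as deposited and 3.41 rescaled. Lyz2, lysozyme of myeloid cells (chr10:117277331-117282321, minus strand), was at 11.7, 25.0, 11.4 and 15.9 FPKM in sham and 473, 737, 589 and 496 in R1W, a difference of 5.13 ± 0.31 (SE, adjusted p = 7.4e-11). Adgre1, which encodes the macrophage antigen F4/80 (chr17:57358686-57483529, plus strand), was at 0.56, 0.94, 0.56 and 0.60 FPKM and 14.96, 19.6, 18.1 and 14.0, a difference of 3.40 ± 0.26 (SE, adjusted p = 9.1e-10). Ctss, the lysosomal protease cathepsin S (chr3:95526786-95556403, plus strand), was at 5.26, 8.52, 4.33 and 5.45 FPKM and 135, 229.6, 298 and 189, a difference of 4.93 ± 0.29 (SE, adjusted p = 3.6e-11). For all 3 genes the groups were separate, and R1W replicates 2 and 3 held the upper values. The 2 genes short of the rule were Csf1r (1.12) and Cd300lf (1.03). Of 26 lysosome genes only 5 were 2-fold higher, namely Ctss, Ctsk, Cd68, Ctsc and Hexa, and the list's median was 0.35 as deposited and -0.06 rescaled.

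All 11 MHC class II genes with a row, which present antigen to CD4 T cells, were 2-fold higher, with a median of 3.56. H2-Aa (chr17:34282744-34287827, minus strand) was at 40.6, 57.6, 37.5 and 42.9 FPKM in sham and 707, 872, 1343 and 794 in R1W, a difference of 4.32 ± 0.26 (SE, adjusted p = 5.1e-11), and H2-Eb1 (chr17:34305877-34316199, plus strand) differed by 4.14 ± 0.23 (SE, adjusted p = 2.6e-11). Of 19 T and NK cell genes with a row, 18 were 2-fold higher. Cd3e, a chain of the T cell receptor complex (chr9:44998740-45009627, minus strand), was at 0.09, 0.08, 0.08 and 0.18 FPKM in sham and 1.70, 1.56, 2.13 and 1.46 in R1W, a difference of 1.29 ± 0.16 (SE, adjusted p = 5.0e-07). Ccl5, a chemokine released by T and NK cells (chr11:83525778-83530518, minus strand), was at 2.01, 1.78, 1.55 and 1.69 FPKM and 28.8, 30.4, 38.6 and 28.2, a difference of 3.55 ± 0.19 (SE, adjusted p = 2.0e-11), and the receptor constant gene Trbc2 differed by 3.14 ± 0.28 (SE, adjusted p = 5.6e-09). As 17 of the 19 were under 1 FPKM in sham, these counts follow in large part from which genes have a row. Only 3 of 14 neutrophil genes had a row, each through groups other than sham, so their direction is no result about neutrophil genes. S100a8, a calcium-binding protein of neutrophils and monocytes (chr3:90668978-90670035, plus strand), was at 0.28, 0.27, 0.34 and 0.27 FPKM in sham and 1.72, 2.78, 3.03 and 1.57 in R1W, a difference of 1.32 ± 0.41 (SE, adjusted p = 0.0065). With a pseudocount of 10 neither S100a8 nor S100a9 passed, with adjusted p-values of 0.14 and 0.13.

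B and plasma cell genes had 8 of 12 members 2-fold higher. Igkc, the constant region of the kappa light chain (chr6:70726435-70726966, plus strand), was at 13.0, 13.2, 16.0 and 22.3 FPKM in sham and 134, 77.0, 84.1 and 104 in R1W, a difference of 2.56 ± 0.33 (SE, adjusted p = 8.7e-07). Ighm, the heavy chain of IgM (chr12:113418558-113422730, minus strand), was at 2.24, 3.36, 1.90 and 4.51 FPKM and 53.7, 40.2, 30.1 and 39.5, a difference of 3.41 ± 0.34 (SE, adjusted p = 2.9e-08). Iglc1, a lambda light chain constant gene (chr16:19061618-19062071, minus strand), was at 1.22, 0.81, 0.09 and 0.91 FPKM in sham and 79.2, 5.21, 12.0 and 1.63 in R1W. R1W replicate 1 alone carried most of the Iglc1 signal: the difference was 2.75 ± 0.70 (SE, adjusted p = 0.0014) with it and 1.81 (adjusted p = 0.0051) without it. Immunoglobulin constant genes have close copies, which makes the division of reads between them uncertain.

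Chemokine and chemokine receptor genes had 31 of 33 members 2-fold higher and 0 lower. Ccl8, a monocyte chemoattractant (chr11:82115185-82116799, plus strand), was at 0, 2.64, 0.08 and 0.17 FPKM in sham and 17.6, 55.7, 43.7 and 24.2 in R1W, a difference of 4.50 ± 0.44 (SE, adjusted p = 1.9e-08). Ccl6 (chr11:83587882-83593087, minus strand) was at 0.74, 2.72, 1.03 and 1.57 FPKM and 38.7, 65.6, 67.1 and 39.7, a difference of 4.43 ± 0.32 (SE, adjusted p = 4.1e-10). The exception in direction was Ccl28, an epithelial chemokine, called lower at -0.88 and at 2-fold when R1W replicate 4 or sham replicate 2 was left out. Of 21 complement genes 14 were 2-fold higher. C3, the central component (chr17:57203970-57228136, minus strand), was at 2.88, 7.48, 2.13 and 2.69 FPKM in sham and 137, 195, 174 and 155 in R1W, a difference of 5.22 ± 0.33 (SE, adjusted p = 9.9e-11), and C1qa, a recognition subunit made by macrophages (chr4:136895917-136898803, minus strand), differed by 4.67 ± 0.30 (SE, adjusted p = 1.3e-10). Among 32 interferon response genes 28 were 2-fold higher and all 32 were called higher under both scalings, with a median of 1.81. Ifi27l2a (chr12:103442167-103443680, minus strand) was at 14.4, 34.9, 13.3 and 18.6 FPKM in sham and 145, 186, 252 and 183 in R1W, a difference of 3.25 ± 0.30 (SE, adjusted p = 8.6e-09), and Ifitm1 (chr7:140967221-140969825, plus strand) differed by 3.14 ± 0.34 (SE, adjusted p = 1.0e-07).

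Glomerular and vessel lists had a smaller share of 2-fold calls than the macrophage list. Of 14 podocyte genes 5 were 2-fold higher and 0 lower. Among the rises were Tcf21 (2.99 ± 0.17 (SE, adjusted p = 2.6e-11)), Cdkn1c (2.13 ± 0.20 (SE, adjusted p = 1.3e-08)), Kirrel (1.79) and Synpo (1.44). Tcf21 is also known from stromal cells, and the fibroblast and pericyte list was higher in the same libraries, a part that was not tested. Of 16 endothelial genes 15 were called higher on deposited values, but 1 at 2-fold, the clotting factor gene Vwf (1.91 ± 0.36 (SE, adjusted p = 7.4e-05)), which is a share below the 11.5% of all genes. Without sham replicate 2 the count was 4. Pecam1, the junction protein CD31 (chr11:106654217-106750628, minus strand), was at 11.4, 18.9, 10.4 and 10.8 FPKM in sham and 34.2, 34.5, 30.9 and 28.8 in R1W, a difference of 1.29 ± 0.18 (SE, adjusted p = 2.7e-06) as deposited and 0.86 rescaled. Vegfa, the endothelial growth factor made by the epithelium and carried on this list, was called lower at -0.49.

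Markers of tissue outside the cortex were also read. Summed urothelium FPKM was 2.65, 135, 5.38 and 7.72 in sham and 109.7, 206, 74.3 and 52.4 in R1W. Apart from sham replicate 2 every sham library was below the R1W range, and 5 of 11 genes were 2-fold higher with that library and 11 without it, while 9 were on leaving out R1W replicate 4. Uroplakin Upk1b was at 0.17, 6.93, 0.35 and 0.36 FPKM in sham and 5.93, 11.4, 5.14 and 2.18 in R1W, and Sprr1a, a squamous envelope gene, at 0.38, 20.4, 1.27 and 0.89 and 31.1, 32.9, 23.2 and 17.0. How far urothelium in the pieces taken bears on the other lists was not tested. Adipoq, the fat cell hormone adiponectin, was at 0.03, 12.5, 0 and 0.03 FPKM in sham and listed at 0 in all 4 R1W libraries. Of 9 adipose genes, Car3 was 2-fold lower (-1.72 ± 0.70 (SE, adjusted p = 0.033)), a call lost without sham replicate 2, 3 or 4, R1W replicate 2 or 3 or the 2-day obstruction group (limma, adjusted p between 0.051 and 0.089). Its adjusted p was 2.1e-04 with R1W and sham fitted alone and 0.0045 with 1 library, titled 4 weeks after reversal but labelled 2 weeks, moved to the 2-week group. The Car3 difference lay between -1.50 and -1.75 where the call was lost, and was -2.15 ± 0.71 after rescaling (SE, adjusted p = 0.011). Of 6 red blood cell genes 1 was 2-fold lower, Slc4a1, which intercalated cells also express, and the single adrenal gene with a row, Star, was at 1.43, 1.76, 1.35 and 1.67 FPKM in R1W.

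**Figure D4:**
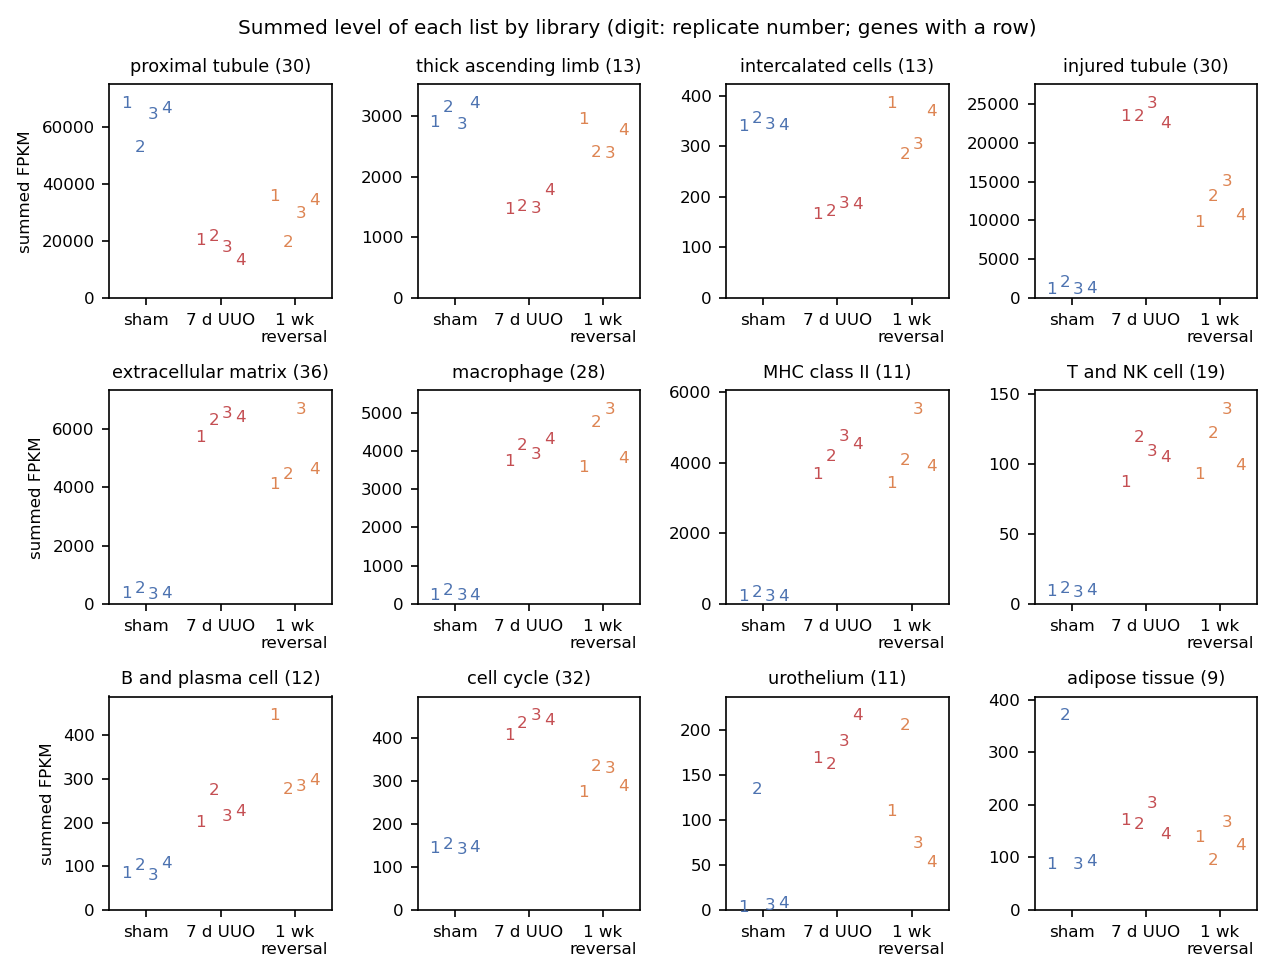
Summed FPKM (y axes, each from 0) of 12 gene lists in each library of sham, of 7 days of obstruction and of 1 week after reversal; each digit is a replicate number. Proximal tubule sums in R1W lie below every sham library, and sham replicate 2 stands out for urothelium and adipose tissue.

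The week of recovery itself was read as R1W against UUO7. limma called 2145 genes, 956 higher in R1W (6.47%) and 1189 lower (8.04%), and 181 met the 2-fold rule. The count fell to 1372 without R1W replicate 1, 1116 without R1W replicate 4, 1345 without UUO7 replicate 1, 1281 without UUO7 replicate 3 and 1331 without UUO7 replicate 4. This contrast and R1W against sham use the same R1W libraries, and UUO7 against sham uses the same sham libraries, so the values are set side by side and no agreement between contrasts is read from them.

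Proximal tubule genes had a median of -2.11 in UUO7 minus sham and -1.33 in R1W minus sham, and 18 of 30 were called higher in R1W than in UUO7, 0 lower. Slc34a1 was at 715, 705, 608 and 575 FPKM in UUO7, below its R1W values, a difference of 0.74 ± 0.21 (SE, adjusted p = 0.023). The list sum of R1W replicate 2, 19356, lay within the UUO7 values of 20154, 21527, 17857 and 13158. In the thick ascending limb 10 of 13 genes were higher than in UUO7 and 0 lower, in the distal list 12 of 22 and 0, and among intercalated genes 11 of 13 and 0. Egf was at 13.5, 16.1, 14.1 and 17.3 FPKM in UUO7, a difference of 2.79 ± 0.40 (SE, adjusted p = 3.3e-04), and Klk1 at 131, 153, 168 and 179, a difference of 2.58 ± 0.32 (SE, adjusted p = 6.3e-05). Pvalb, listed at 0 in 3 UUO7 libraries and at 0.04 FPKM in the other, was present in all 4 R1W libraries, though far below sham. Hnf4a, at 70.4, 69.3, 54.5 and 57.5 FPKM in UUO7, did not pass the test against R1W (0.15 ± 0.16 (SE, adjusted p = 0.59)), and neither did Ppara (0.31 ± 0.24 (SE, adjusted p = 0.41)).

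Among injury genes 12 of 30 were lower in R1W than in UUO7 and 0 higher. Havcr1 was at 508, 443, 510.1 and 429 FPKM in UUO7, a difference of -1.94 ± 0.33 (SE, adjusted p = 0.0012), and Lcn2 at 888, 748, 807 and 1107, a difference of -1.35 ± 0.40 (SE, adjusted p = 0.03). Cell cycle genes had the most calls of this kind, 21 of 32 lower and 0 higher. Matrix genes had 10 of 36 lower, among them Col1a1 at 76.8, 91.0, 76.8 and 92.5 FPKM in UUO7 (-0.77 ± 0.24 (SE, adjusted p = 0.037)), while Col3a1 did not pass (-0.53 ± 0.27 (SE, adjusted p = 0.19)). Of 21 complement genes 4 were lower than in UUO7 and 1 higher, and C3 was among the lower ones, at 402, 380.2, 423 and 375 FPKM in UUO7 and 137, 195, 174 and 155 in R1W (-1.26 ± 0.33 (SE, adjusted p = 0.015)). Of 28 macrophage genes 2 were higher and 0 lower, a share near the 6.47% of all genes, with a median of 0.04, and of 11 MHC class II genes 0 passed in either direction. The 2 macrophage genes, named after their values were seen, were Retnla, a marker of alternatively activated macrophages, at 2.75, 5.00, 11.8 and 7.18 FPKM in UUO7 and 21.1, 25.9, 39.3 and 16.7 in R1W (1.87 ± 0.43 (SE, adjusted p = 0.0074)), and Mmp12, macrophage elastase, at 4.35, 9.16, 8.20 and 7.60 and 10.7, 21.1, 18.0 and 12.7 (0.99 ± 0.32 (SE, adjusted p = 0.043)). Of 19 T and NK cell genes 2 were higher, Cd8a (0.64 ± 0.14 (SE, adjusted p = 0.0054)) and Cd8b1 (0.49 ± 0.15 (SE, adjusted p = 0.034)), the chains of CD8, and of 12 B and plasma cell genes 2 were, Igkc (1.04 ± 0.33 (SE, adjusted p = 0.039)) and Jchain (1.15 ± 0.28 (SE, adjusted p = 0.011)). Both counts rest on few genes, beside the 6.47% of all genes. Cd8a, Cd8b1 and Jchain were named after their values were seen.

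**Figure D5:**
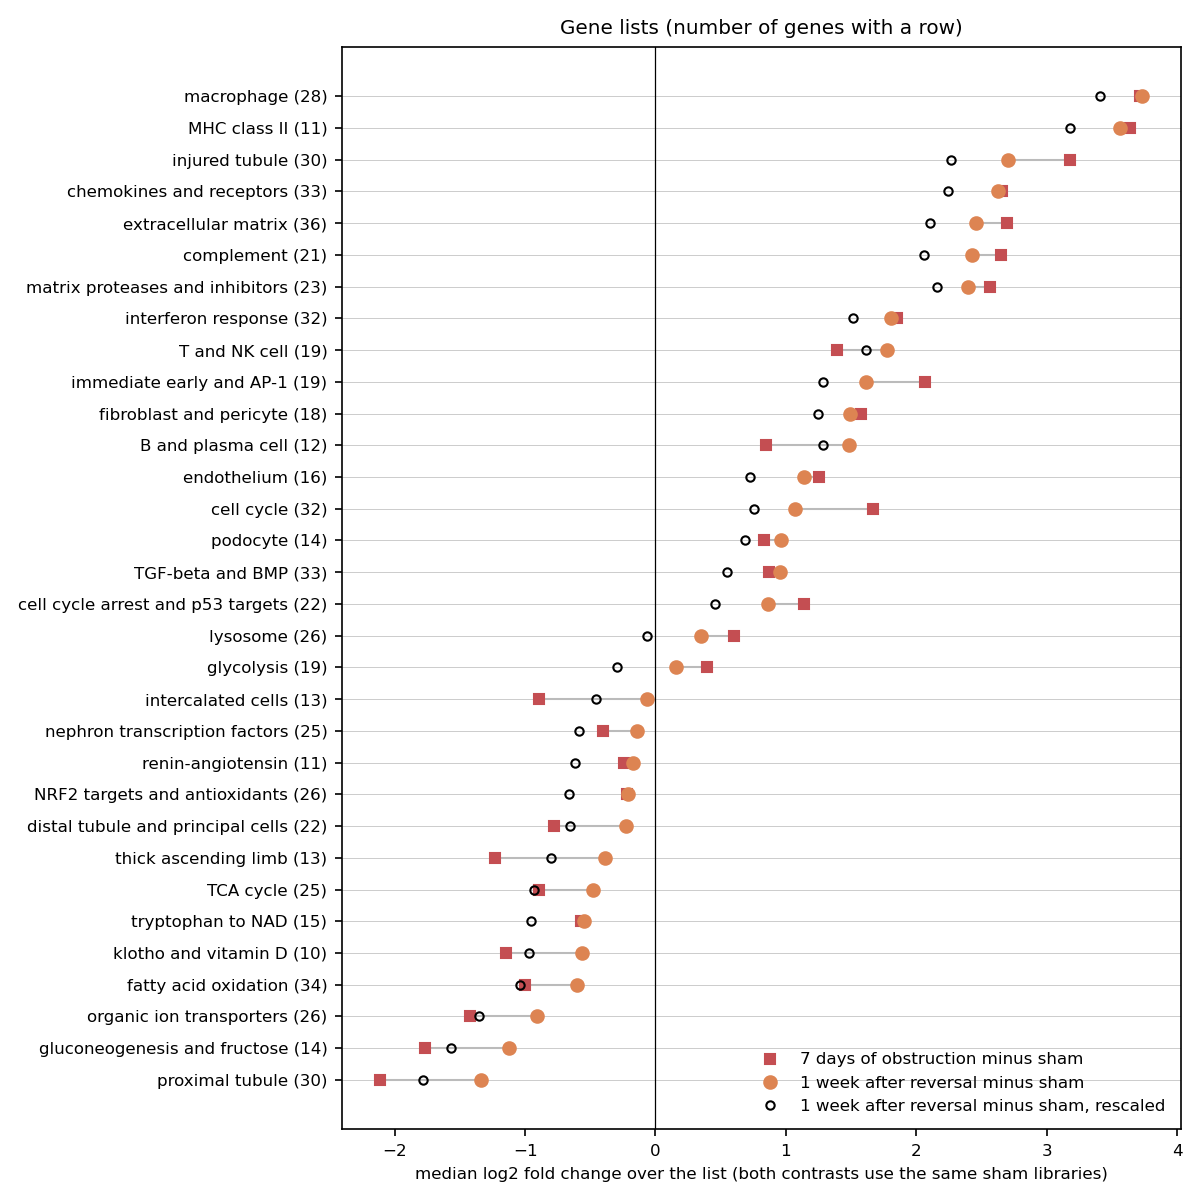
Median log2 fold change of each gene list (number of genes with a row in brackets) for 7 days of obstruction minus sham (squares), for 1 week after reversal minus sham (filled circles) and for the same after rescaling (open circles). Both contrasts share the sham libraries; nephron segment lists lie closer to 0 after reversal, and the macrophage and MHC class II medians are nearly level.

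A small number of genes lay outside both groups. Under both scalings 84 genes were higher in R1W than in sham and than in UUO7, and 19 were lower than in both, of which 10 and 7 had a mean of at least 20 FPKM over R1W and sham. Cxcl12, a chemokine that retains leukocytes and progenitor cells (chr6:117168535-117181367, plus strand), was at 33.6, 40.1, 25.4 and 30.4 FPKM in sham, 33.1, 38.3, 35.6 and 32.1 in UUO7 and 115, 82.9, 90.5 and 107 in R1W. Every R1W library was above every other library of those groups, with differences of 1.59 ± 0.23 (SE, adjusted p = 3.4e-06) from sham and 1.47 ± 0.23 (SE, adjusted p = 7.3e-04) from UUO7. Cdkn1c, the inhibitor p57 (chr7:143458339-143461050, minus strand), was at 7.5, 8.62, 8.49 and 7.64, 17.3, 21.5, 25.7 and 23.5 and 29.6, 44.6, 46.1 and 36.7 FPKM in the same order, a difference of 0.80 ± 0.20 (SE, adjusted p = 0.012) from UUO7. Igkc, Ly6c1, a surface protein of endothelial and myeloid cells (chr15:75044018-75048830, minus strand; 0.48 ± 0.12 (SE, adjusted p = 0.013) from UUO7), and Olfm4, a secreted glycoprotein (chr14:79984081-80023139, plus strand; 0.50 ± 0.13 (SE, adjusted p = 0.014)), completed the 5 rises named by rule.

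Of the genes below both groups, Tmem252, a membrane protein (chr19:24674008-24679661, plus strand), was at 30.0, 48.9, 40.2 and 40.6 FPKM in sham, 49.9, 39.6, 44.4 and 39.5 in UUO7 and 20.5, 21.1, 22.7 and 20.6 in R1W. Ndrg1, a gene induced by low oxygen (chr15:66929321-66969640, minus strand), was at 543, 524, 667 and 583, 622, 583, 591 and 594 and 345, 334, 380.2 and 379 FPKM, with differences of -0.68 ± 0.14 (SE, adjusted p = 2.5e-04) from sham and -0.73 ± 0.14 (SE, adjusted p = 0.0032) from UUO7. For both genes sham and UUO7 overlapped and R1W lay below them. Kmt5a, a histone methyltransferase (chr5:124439930-124462308, plus strand; -0.43 ± 0.08 (SE, adjusted p = 5.6e-05) from sham), and Ap2a2, an adaptor subunit of endocytosis (chr7:141562173-141633011, plus strand; -0.33 ± 0.05 (SE, adjusted p = 1.9e-06)), were lower by less than 2-fold.

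Promoter windows were read for short motifs of regulators of the groups above, as a description without a test. RefSeq windows (GRCm38.p6) from 250 bases before to 50 after a start were found for 10654 of the tested genes, 1218 of the 2-fold higher and 277 of the 2-fold lower, 13597 windows in all. The letters CAAAGTCCA, for HNF4, were found on either strand in 0.456% of all, 1.45% of lower and 0.767% of higher windows. TGANTCA, for AP-1, was in 5.39% of all and 9.34% of higher windows, GGGANTTTC, for NF-kB, in 0.986% and 2.3%, GAAANTGAA, an interferon response element, in 1.7% and 3.58%, and GAGGAAGT, for ETS factors such as PU.1, in 3.15% and 5.5%. For lower genes these 4 shares were 6.94%, 0.578%, 0.867% and 2.02%. Motifs can overlap, and a match is only a run of letters.

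Windows of 2 genes from the lists, chosen after their values were seen, are printed for the 250 bases before the start. Only the motif named for each gene is in capitals. Matches to other motifs stay in lower case, such as tgagtca for AP-1 in Cxcl10. Cxcl10, an interferon-induced chemokine, was 2-fold higher (2.62 ± 0.27 (SE, adjusted p = 4.8e-08)), and its window (chr5:92348890-92349139, minus strand) carries the interferon element. Cxcl1, a neutrophil chemoattractant, was 2-fold higher (3.73 ± 0.44 (SE, adjusted p = 2.7e-07)), and its window (chr5:90890995-90891244, plus strand) carries the NF-kB letters.
Cxcl10: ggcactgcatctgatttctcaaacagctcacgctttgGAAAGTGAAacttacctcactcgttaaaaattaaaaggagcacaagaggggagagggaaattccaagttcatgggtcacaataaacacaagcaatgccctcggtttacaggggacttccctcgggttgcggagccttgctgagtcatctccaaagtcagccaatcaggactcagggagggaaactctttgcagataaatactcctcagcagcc
Cxcl1: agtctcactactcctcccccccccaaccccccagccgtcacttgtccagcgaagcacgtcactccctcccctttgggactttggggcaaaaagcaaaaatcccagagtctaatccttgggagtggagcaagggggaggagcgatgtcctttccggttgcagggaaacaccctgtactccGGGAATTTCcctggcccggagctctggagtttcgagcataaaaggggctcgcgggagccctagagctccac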

How the data were processed

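Kidney RNA of 24 mice was analysed from one table. The submitters' processing notes name FastQC, Bowtie2, RSEM, DESeq2 and mm10, with versions and roles not given in the sources used here. No unit is given per the file headers; the deposited values were taken as FPKM because they sum to similar totals when multiplied by transcript length. The lowest gene mean over the 24 libraries is 1 FPKM, so lower genes are not analysed here. The authors' log2 fold changes and adjusted p-values for their comparisons are in the same deposited table and were only counted or copied. Its 19 gene names that had turned into dates were restored from their identifiers.

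Depth was implied from whole-fragment steps in low values, with each transcript shortened by the 140 to 170 bases that served each library best of 100 to 200 tried. The test was limma 3.58.1 under R 4.3.3 (eBayes with trend) on log2(FPKM + 1) in one model of all 24 libraries, with Benjamini-Hochberg adjustment over 14785 genes. On simulated data of 14785 genes for R1W against sham, 90 of 100 genes changed by 1 on the log2 scale and 100 of 100 changed by 2 were called, as were 6 unchanged genes. That simulation changed 200 genes, none of them at a low mean level, and left all others level between groups. Its counts do not carry over to low genes or to a difference as wide as that between R1W and sham. Replicate numbers recur across groups but come from different animals. Motif counts and plots used Python 3.11.15 and matplotlib 3.10.9.

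Named genes were a fixed panel of 36, the 6 greatest rises and falls among 2-fold calls (mean 100 FPKM or more, groups separate), up to 5 genes in each direction beyond both sham and UUO7 (mean 20 or more), and up to 2 per direction of each list. Clone, mitochondrial and ribosomal names were left out of the choices by size. Any further gene was chosen after seeing its values. The comparison, lists and thresholds were chosen with earlier results of these data known. Of 796 listed genes, 711 had a row. Results for some genes are not reported here.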

Additional observations from a re-analysis of the deposited data

Results flagged for a closer look

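Across 101 named genes and 37 list sums, each in R1W and in sham, 276 groups of 4 libraries were tested for 1 library far from the other 3, and 27 stood out (9.78%); chance alone gives about 1 in 20. Of these, 19 concern sham replicate 2. It was the highest sham library for Adgre1 (0.94 FPKM), C3 (7.48), Ccl8 (2.64), Col1a1 (3.71), Ctsk (2.73), Nbl1 (15.1), Nkd2 (0.51), Pecam1 (18.9), Spp1 (719) and Sprr1a (20.4), and the lowest for Aadat (229.7), Ace (54.6) and Mep1b (87.8). Its list sums were also the highest for extracellular matrix (532), macrophage (356), MHC class II (319), urothelium (135) and adipose tissue (369), and the lowest for matrix proteases and inhibitors (1344), a list that holds the abundant meprins of the proximal tubule. All of these genes stayed called against R1W without that library.

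In the other sham libraries, Cd3e was high in replicate 4 (0.18 FPKM), Csf3r in replicate 1 (0.41) and S100a8 in replicate 3 (0.34), all at levels near 0. In R1W, replicate 1 was the highest for Iglc1 (79.2 FPKM) and for the B and plasma cell sum (445), replicate 2 the lowest for Slc6a19 (13.4), replicate 3 the highest for Tgfbi (37.2) and replicate 4 the lowest for Ly6c1 (134).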

How the results depend on the processing

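For R1W against sham, the count of called genes was 10954 and lay between 10395 and 10881 on leaving out 1 library; it was 5750 of the 7512 genes whose mean reached 10 FPKM and 3019 past 2-fold as deposited. The 2098 2-fold calls lay between 1958 and 2294 on leaving out 1 library, and were 588 with a pseudocount of 10, which shrinks low genes, and 950 among genes whose mean reached 10 FPKM, with 68% and 67.7% of them higher. The 2145 genes of R1W against UUO7 lay between 1116 and 2535 on leaving out 1 library, and were 687 at an adjusted p under 0.01 and 196 past 2-fold as deposited. With the replicate number as a block the 3 counts were 10878, 2099 and 1945. Deviations of same-numbered R1W and sham libraries correlated at 0.0874, 0.268, -0.0535 and -0.0595, those of R1W and UUO7 at 0.133, 0.0861, 0.451 and -0.0769, and 2 of 4 R1W libraries went best with their own number in each, so the numbers were not taken as pairs; the block changed no call of a named gene in R1W against sham, and named genes were not counted under it against UUO7. Moving 1 library, titled 4 weeks after reversal but labelled 2 weeks, to the 2-week group gave 10938, 2099 and 2138. Of the named genes, Aqp2 changed sign without R1W replicate 3 (0.13) and without sham replicate 2 (0.34) within a leave-one-out range of -0.29 to 0.34, and Umod without R1W replicate 1 within a range of -0.020 to 0.085 and after rescaling (-0.41); neither was called as deposited, and Umod after rescaling had an adjusted p of 0.039. Rescaling kept the direction and the side of the threshold of 99 of 101 named genes in R1W against sham; against UUO7 it ended the calls of Dnase1 (adjusted p = 0.058) and Slc5a2 (0.053). Counting depth limits genes near 1 FPKM most, and genes under a mean of 1 FPKM could not be read.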
